A study of Mus musculus with 80 samples.

Results

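Cxcl9, Cxcl10 and Cxcl11, the chemokine genes whose products bind the receptor CXCR3, and the receptor gene Cxcr3 were followed in mouse lung across 4 strains and 4 doses of inhaled styrene. The 4 genes were found by their symbols among 17097 genes of the arrays. They had 5 of the 45037 probe sets. Cxcl11 had more than 1, and the brighter one, by its mean over the 80 arrays, was used. The group of genes was chosen by a result of these arrays, the large difference of Cxcl10 between exposed and unexposed wild-type lungs. The wild-type values of Cxcl10 and the contrasts that contain them are therefore given as a description, without a test. The other 3 genes were tested.

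Whole lungs came from adult male mice that breathed air (0 ppm) or styrene at 10, 40 or 120 ppm once for 6 h and were killed on the following morning. Styrene is a volatile solvent used in making plastics, and the cytochrome P450 CYP2F2 oxidizes it in the club cells of the mouse airway. The strains were C57Bl/6 wild type (WT), a CYP2F2 knockout on C57Bl/6 (KO), a CYP2F1 humanized C57Bl/6 line (TG) and CD-1, an outbred stock. Each of the 16 combinations of strain and dose held 5 biological replicates, each on its own array. One label field spells the background of the first 3 strains C67Bl/6, and the labels give neither the promoter of the human gene in TG nor the deleted part of the knockout.

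CXCR3 is carried mainly by activated T cells and natural killer cells, and CXCL9, CXCL10 and CXCL11 guide these cells into tissue. All 3 ligand genes are induced by interferon gamma. CXCL10 also responds strongly to type I interferons and to NF-kappaB, the transcription factor of many inflammatory genes, whereas CXCL9 depends more on interferon gamma. In the RefSeq gene table (GRCm38.p6) the ligand genes lie next to each other on chromosome 5 in the order Cxcl9, Art3, Cxcl10, Cxcl11, and Cxcr3 lies on chromosome X. Cxcl9 and Cxcl10 are protein coding in that table, whereas Cxcl11 is listed as a transcribed pseudogene. The reference genome is that of a C57BL/6 mouse, whose Cxcl11 carries a frameshift.

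The 250 bases before the start of the 2 ligand genes with the larger changes are shown because they differ in their matches to the 3 motifs searched. They are RefSeq sequences of GRCm38.p6, read 5′ to 3′ on the minus strand, at chr5:92348890-92349139 for Cxcl10 and at chr5:92328080-92328329 for Cxcl9. Capitals mark matches to a motif on either strand.
Cxcl10: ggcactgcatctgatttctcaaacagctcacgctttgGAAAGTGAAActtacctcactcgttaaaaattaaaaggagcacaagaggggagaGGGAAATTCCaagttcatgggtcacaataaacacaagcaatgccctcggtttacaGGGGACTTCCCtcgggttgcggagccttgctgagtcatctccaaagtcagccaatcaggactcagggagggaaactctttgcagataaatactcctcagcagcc
Cxcl9: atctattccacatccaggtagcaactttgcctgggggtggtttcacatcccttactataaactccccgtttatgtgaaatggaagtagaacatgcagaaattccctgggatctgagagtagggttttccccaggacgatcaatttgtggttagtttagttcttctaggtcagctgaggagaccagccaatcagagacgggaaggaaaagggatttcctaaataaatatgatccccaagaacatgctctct
The motifs searched were the core of the interferon-stimulated response element (ISRE), GAAANNGAAA, the kappaB consensus, and the core of the gamma-activated site (GAS), TTCNNNGAA. Cxcl10 held 1 ISRE core, GAAAGTGAAA, at positions -213 to -204 from the start. It also held kappaB matches at -159 to -150, GGGAAATTCC, and at -104 to -95, GGGGACTTCC, with another match shifted by 1 base that overlaps the last. In this window Cxcl9 held none of the 3 motifs, nor did Cxcr3. Over 32851 promoter windows of this length, 2.98% held the ISRE core, 7.25% the kappaB consensus and 7.02% the GAS core. A match is a description of letters, and a window without one says nothing about the factors. Elements that depart from these patterns were not searched.

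The arrays gave log2 signal. The median of an array lay between 4.53 and 4.60 for WT, 4.24 and 4.30 for CD-1, 4.09 and 4.20 for KO, and 3.84 and 4.14 for TG. The median of the whole table was 4.28. Of the 4 genes, Cxcl9 and Cxcl10 had a signal above it in at least 5 arrays, 23 and 21 arrays, and entered the fits over 11406 genes. They did so mainly through the groups in which they were high. Cxcl11 and Cxcr3 had no array above it and are given from fits over all 17097 genes. The markers of alveolar type 1 and type 2 cells were all above the table median in every group, 5 of 5 genes for each type. Cyp2f2, the targeted gene, averaged 11.68 in KO and 11.66 in TG in air, against 13.23 in WT and 13.02 in CD-1. A single probe set whose place relative to the deletion is unknown is no check of the knockout.

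Cxcl10 went from a signal below most of the table to one of the brighter signals in WT lungs exposed to any dose. The 5 WT arrays in air read 4.28, 3.58, 3.53, 3.59 and 3.33 (mean 3.66, SD 0.36). At 10 ppm they read 7.51, 8.17, 8.75, 8.47 and 8.37 (mean 8.25, SD 0.47). At 40 ppm the values were 7.91, 6.32, 7.16, 9.18 and 8.90 (mean 7.89, SD 1.19). At 10 ppm all 5 arrays lay above every air array, which was so for 6.07% of the genes tested. The spread was widest at 40 ppm, where replicate 2 was the lowest of all exposed WT arrays. At 120 ppm the arrays read 8.98, 8.78, 7.96, 8.94 and 8.08 (mean 8.55, SD 0.49). Ranked within its own array, Cxcl10 exceeded 36.1% of the probe sets in air, as the median of 5 arrays. At 10, 40 and 120 ppm these medians were 87.2%, 83.3% and 90.1%. Against air the difference was 4.59 ± 0.41 at 10 ppm, 4.23 ± 0.41 at 40 ppm and 4.89 ± 0.41 at 120 ppm (log2, SE, n = 5 per group). In air 4 of the 5 arrays lay below the table median.

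**Figure D1:**
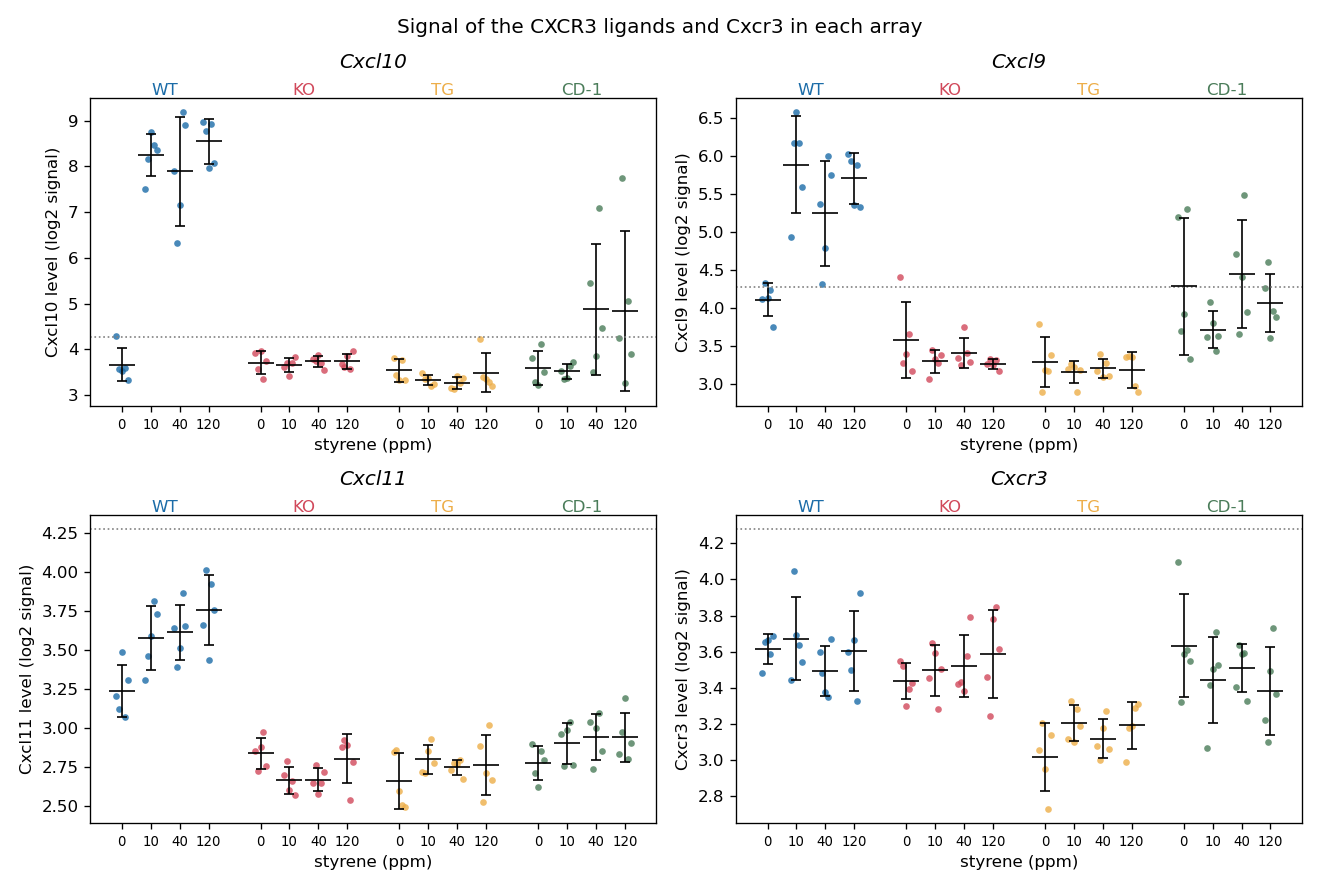
Log2 signal of Cxcl10, Cxcl9, Cxcl11 and Cxcr3 in each of the 80 arrays, by strain and styrene dose in ppm. Points are arrays, bars are the mean and SD of 5 arrays, and the dotted line is the median of the whole table at 4.28. Cxcl10 lies between 6.32 and 9.18 in the exposed WT arrays and between 3.14 and 3.98 in the exposed KO and TG arrays except 1 at 4.23, and Cxcl11 and Cxcr3 stay under the dotted line.

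Cxcl9, the ligand most closely tied to interferon gamma, was also higher in exposed WT lungs, by a smaller step. In air the WT arrays read 4.11, 4.32, 4.12, 4.23 and 3.74 (mean 4.10, SD 0.22). At 10 ppm they read 4.92, 6.16, 6.57, 6.16 and 5.58 (mean 5.88, SD 0.64). At 120 ppm they read 6.02, 5.93, 5.35, 5.87 and 5.32 (mean 5.70, SD 0.33). At these 2 doses the exposed arrays did not overlap with air, which was so in the upward direction for 6.07% of the genes tested at 10 ppm and 12.1% at 120 ppm. At 40 ppm the values were 5.36, 4.31, 4.78, 5.99 and 5.75 (mean 5.24, SD 0.69). Replicate 2, which was also the lowest for Cxcl10, lay within the air range, so the groups overlapped there.

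By limma with Benjamini-Hochberg adjustment Cxcl9 rose at every dose. The rise was 1.78 ± 0.30 at 10 ppm (limma adjusted p = 0.000419), 1.13 ± 0.30 at 40 ppm (0.0083) and 1.59 ± 0.30 at 120 ppm (0.000796), or 3.42, 2.19 and 3.02 times. Ranked by change, it stood 37th, 105th and 48th of the 11406 genes. The share of all genes called in either direction was 12.6% at 10 ppm, 26.0% at 40 ppm and 23.9% at 120 ppm. The share called higher was 7.67%, 13.7% and 14.3%. The signal over the 3 exposed groups was 2.83 times that in air (limma adjusted p = 0.000142), in a contrast that called 29.6% of the 11406 genes. Because Cxcl9 entered these fits through its high groups, it was also read from the fits over all 17097 genes, where the adjusted p was 0.0005, 0.011 and 0.00102. Leaving out any single array kept the call at every dose, with changes from 0.94 at the lowest (40 ppm) to 2.01 at the highest (10 ppm).

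Cxcl11, the third ligand, moved least of the 3. Its WT arrays in air read 3.20, 3.12, 3.48, 3.07 and 3.31 (mean 3.24, SD 0.16). At 10 ppm they read 3.30, 3.46, 3.59, 3.82 and 3.73 (mean 3.58, SD 0.21), and at 40 ppm 3.64, 3.39, 3.51, 3.87 and 3.65 (mean 3.61, SD 0.18). At 120 ppm they read 3.66, 4.01, 3.44, 3.92 and 3.76 (mean 3.76, SD 0.23). Each dose overlapped with air, through the air array at 3.48, and 3, 4 and 4 of the 5 exposed arrays lay above all air arrays.

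The change of Cxcl11 against air was 0.34 ± 0.12 at 10 ppm (adjusted p = 0.0812 by limma, not called). It rose by 0.38 ± 0.12 at 40 ppm, with a limma adjusted p of 0.0308, and by 0.52 ± 0.12, or 1.44 times, at 120 ppm, with one of 0.00448. In these fits over all genes 7.31%, 16.3% and 14.8% of genes were called at 10, 40 and 120 ppm, and 4.61%, 8.57% and 9.02% were called higher. The mean of the 3 exposed groups lay 0.41 ± 0.09 above air (limma adjusted p = 0.00406), in a contrast that called 18.7% of genes. Leaving out a single array ended the call at 40 ppm in 6 cases, in which the limma adjusted p reached at most 0.0859. These arrays were replicates 1, 2 and 4 of the air group and 1, 4 and 5 of the exposed group, with changes between 0.31 and 0.37. At 10 ppm Cxcl11 passed without WT 10 ppm replicate 1 (0.41, limma adjusted p = 0.0465). The other Cxcl11 probe set was dimmer, with WT means of 2.54, 2.58, 2.59 and 2.64 at 0, 10, 40 and 120 ppm.

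Cxcr3, the receptor, did not pass at any dose in WT. Its group means in WT were 3.61, 3.67, 3.49 and 3.60 at 0, 10, 40 and 120 ppm, and single arrays ran from 3.33 to 4.05. The differences from air were 0.06, -0.12 and -0.01 (SE 0.11 each), with 95% intervals from -0.16 to 0.28, from -0.34 to 0.10 and from -0.23 to 0.21. The limma adjusted p values were 0.818, 0.516 and 0.963. In a whole lung, fewer cells of a type and less RNA per cell cannot be told apart.

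**Figure D2:**
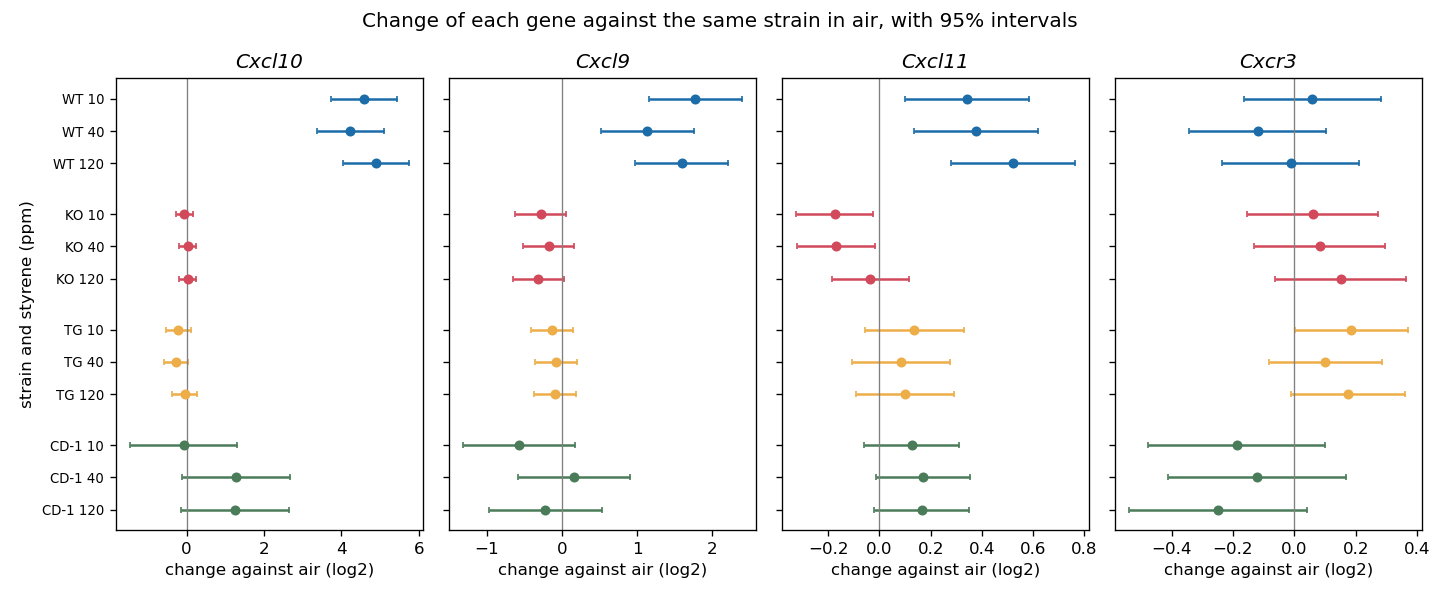
Change of each gene against air of the same strain, in log2 units, at 10, 40 and 120 ppm in WT, KO, TG and CD-1. Points are limma estimates and bars are 95% intervals, and each panel has its own axis. The WT intervals of Cxcl9 and Cxcl11 lie above 0, while those of Cxcr3 span it. The WT points and bars of Cxcl10 are a description, since they chose the genes. The CD-1 intervals of Cxcl10 are the widest, from -1.46 to 2.68.

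The doses could not be ordered in WT for Cxcl9, Cxcl11 or Cxcr3, and Cxcl10 is given as a description. Cxcl9 at 40 ppm lay 0.64 below 10 ppm (95% interval -1.26 to -0.02), with an unadjusted p of 0.0428 and an adjusted p of 0.306 by limma. Between 10 and 120 ppm it differed by -0.18 (interval -0.80 to 0.44). For Cxcl10 the differences were -0.36 from 10 to 40 ppm (interval -1.21 to 0.50), 0.30 from 10 to 120 ppm (interval -0.56 to 1.15) and 0.65 from 40 to 120 ppm (interval -0.20 to 1.51). Cxcl11 had the order 10, 40, 120 ppm in its means, with steps of 0.03 and 0.14 that did not pass. Limma called none of Cxcl9, Cxcl11 and Cxcr3 in these 3 contrasts. The contrasts called 0.947%, 0.903% and 0% of the 11406 genes from 10 to 40, 10 to 120 and 40 to 120 ppm, and 0.497%, 0.45% and 0% of all 17097. At an unadjusted p under 0.05 there was 1, Cxcl9 from 10 to 40 ppm.

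The wild-type levels stood at the top of the order of group means. For Cxcl10 the 16 group means ran from WT 120 ppm (8.55) over WT 10 ppm and WT 40 ppm (7.89) to CD-1 40 ppm (4.88) and CD-1 120 ppm (4.85), with the 11 others between 3.27 and 3.74. Only the gap between WT 40 ppm and CD-1 40 ppm, 3.02, exceeded the larger of the neighbouring SDs. For Cxcl9 the exposed WT groups were also the highest 3, followed by CD-1 40 ppm (4.44), and this gap of 0.80 against an SD of 0.71 was again the only one above the neighbouring spread. For Cxcl11 all 4 WT groups were highest, with gaps above the spread between WT 10 ppm and WT air (0.34) and between WT air and the other strains (0.29), and lower in the order between TG 40 ppm and KO 40 ppm (0.08). Array medians also differed between strains, so an order across strains mixes both. For Cxcr3 no neighbouring groups were separated by more than their SD.

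In KO lungs no dose gave a call for any of the 4 genes. Cxcl10 ran from 3.35 to 3.98 over the 20 KO arrays, and its group means were 3.71, 3.66, 3.74 and 3.74 at 0, 10, 40 and 120 ppm. The 95% intervals of its change reached from -0.28 at the lowest to 0.25 at the highest. Cxcl9 had means of 3.58, 3.29, 3.40 and 3.26, with replicate 1 in air the highest KO array at 4.41. Cxcl11 had means of 2.84, 2.66, 2.67 and 2.80, and its changes of -0.17 at 10 and 40 ppm had unadjusted p values of 0.0255 and 0.0292 (adjusted p = 0.597 and adjusted p = 0.935 by limma). Cxcr3 had means of 3.44, 3.50, 3.52 and 3.59. Limma called 0% of all genes at each KO dose, with or without the filter on low signal.

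In TG lungs no dose gave a call for any of the 4 genes either. The Cxcl10 means were 3.54, 3.33, 3.27 and 3.49 over the 4 doses, and replicate 1 at 120 ppm stood alone at 4.23, while the others of that group ran from 3.19 to 3.39. That array also had a mean change of 0.98 against TG air over 19 genes of the type I interferon response, while the other 4 ran from -0.13 to 0.02. Cxcl9 had means of 3.28, 3.15, 3.20 and 3.18, and Cxcl11 of 2.66, 2.80, 2.75 and 2.76. Cxcr3 had means of 3.02, 3.20, 3.12 and 3.19, and its difference at 10 ppm, 0.19 ± 0.09, had an unadjusted p of 0.0483 (adjusted p = 0.381 by limma). The lowest Cxcr3 array, at 2.73, was replicate 4 in air, which also had the lowest median of all arrays. None of the 4 genes passed at any TG dose with or without that array, where 0%, 0% and 0.0701% of the 11406 genes, and 0%, 0% and 0.0292% of all 17097, passed at 10, 40 and 120 ppm with it.

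The responses of WT and KO were then set against each other directly. The WT change of Cxcl10 exceeded that of KO by 4.64 ± 0.44, 4.20 ± 0.44 and 4.86 ± 0.44 at 10, 40 and 120 ppm. That of Cxcl9 exceeded it by 2.06 ± 0.35 (limma adjusted p = 9.69e-05), 1.31 ± 0.35 (0.00961) and 1.91 ± 0.35 (0.000238). For Cxcl11 the excess was 0.52 ± 0.14 (limma adjusted p = 0.0209), 0.55 ± 0.14 (0.00888) and 0.56 ± 0.14 (0.00912). Over the 11406 genes 7.59%, 13.9% and 11.4% passed in this comparison, and over all 17097 genes 4.78%, 8.19% and 6.88%. The excess of Cxcl11 at 10 ppm did not pass without WT 10 ppm replicate 5 (0.48, limma adjusted p = 0.0507). The Cxcr3 differences, -0.20 at 40 ppm and -0.16 at 120 ppm among them, did not pass. Over the mean of the 3 doses the WT response was larger by 4.57 for Cxcl10, 1.76 for Cxcl9 and 0.54 for Cxcl11, where 17.2% of the 11406 and 11% of all genes passed.

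Against TG the WT change of Cxcl10 was larger by 4.80 ± 0.45, 4.50 ± 0.45 and 4.93 ± 0.45. Cxcl9 differed by 1.91 ± 0.34 (limma adjusted p = 0.000209), 1.21 ± 0.34 (0.0162) and 1.69 ± 0.34 (0.000821). In this comparison 5.51%, 10.1% and 9.75% of the 11406 genes passed, and 3.16%, 5.88% and 5.52% of all genes. Cxcl11 differed by 0.21, 0.29 and 0.42 and did not pass (limma adjusted p = 0.552, 0.294 and 0.0941). At 120 ppm it passed without TG 120 ppm replicate 4 (0.49, limma adjusted p = 0.0477) or without WT 120 ppm replicate 3 (0.50, limma adjusted p = 0.0379). Over the mean of the 3 doses the WT response exceeded that of TG by 4.74 for Cxcl10 and 1.60 for Cxcl9, where 14% of the 11406 and 8.37% of all genes passed. Between TG and KO limma called 0 of the 4 genes at any dose, where 0.0175%, 0% and 0% of genes passed at 10, 40 and 120 ppm in either set of genes. Over the mean of the doses 0.0526% of the 11406 and 0.0585% of all genes passed. Cxcl11 had an unadjusted p of 0.0106 at 10 ppm and 0.0335 at 40 ppm in that comparison. The comparisons with KO and TG share the WT arrays.

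CD-1 lungs differed from both patterns in that single arrays carried a high Cxcl10 signal. In air the arrays read 3.81, 3.30, 3.22, 4.12 and 3.51 (mean 3.59), and at 10 ppm 3.52, 3.34, 3.37, 3.63 and 3.73 (mean 3.52). At 40 ppm they read 5.44, 3.52, 3.87, 7.09 and 4.47 (mean 4.88, SD 1.44), and at 120 ppm 4.24, 7.75, 3.27, 5.07 and 3.89 (mean 4.85, SD 1.75). At each of the higher doses 3 of 5 arrays lay above every air array and the groups overlapped, and at 10 ppm none did. Replicate 4 at 40 ppm and replicate 2 at 120 ppm reached the range of the exposed WT arrays. The change against air was 1.29 ± 0.66 at 40 ppm (95% interval -0.10 to 2.68, adjusted p = 0.9995 by limma) and 1.25 ± 0.66 at 120 ppm (interval -0.14 to 2.64, adjusted p = 0.997). Without replicate 4 the change at 40 ppm was 0.73, and without replicate 2 that at 120 ppm was 0.53. In CD-1 0%, 0.00877% and 0.0175% of the 11406 genes passed at the 3 doses, and 0%, 0.00585% and 0.0117% of all genes.

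Cxcl9 in CD-1 varied already in air. The air arrays read 5.19, 3.69, 3.91, 5.29 and 3.33 (mean 4.28, SD 0.90), so replicates 1 and 4 were as high as exposed WT arrays. At 10 ppm they read 3.62, 4.08, 3.80, 3.43 and 3.63 (mean 3.71), at 40 ppm 4.71, 3.65, 4.40, 5.48 and 3.95 (mean 4.44) and at 120 ppm 4.26, 4.61, 3.61, 3.95 and 3.87 (mean 4.06). The groups overlapped at every dose and the changes, -0.57, 0.16 and -0.22 (SE 0.36 each), did not pass. Cxcl11 had CD-1 means of 2.77, 2.90, 2.94 and 2.94, with changes of 0.13, 0.17 and 0.16 (SE 0.09 each), and Cxcr3 of 3.63, 3.44, 3.51 and 3.38. Limma called 0 of the 4 genes at the 3 doses, and none had an unadjusted p under 0.05.

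The responses of CD-1 and WT were compared in the same way. For Cxcl10 the CD-1 minus WT difference was -4.66 at 10 ppm, -2.95 at 40 ppm and -3.63 at 120 ppm (SE 0.81 each). For Cxcl9 the difference was -2.35 ± 0.48 at 10 ppm (limma adjusted p = 0.00299), -0.98 ± 0.48 at 40 ppm (0.30, not called) and -1.82 ± 0.48 at 120 ppm (0.0254). The last did not pass without CD-1 0 ppm replicate 1 (-1.59, limma adjusted p = 0.0576), which is one of the high air arrays, or without CD-1 120 ppm replicate 3 (-1.70, limma adjusted p = 0.0539). Of the 11406 genes 1.89%, 1.61% and 4.37% passed here at 10, 40 and 120 ppm, and of all genes 1.14%, 0.778% and 2.44%. Over the mean of the doses the difference was -3.75 for Cxcl10 and -1.71 for Cxcl9, where 5.42% of the 11406 and 2.92% of all genes passed. Cxcl11 differed by -0.22, -0.21 and -0.36 and Cxcr3 by -0.25 at 10 ppm and -0.24 at 120 ppm, and neither passed at any dose.

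**Figure D3:**
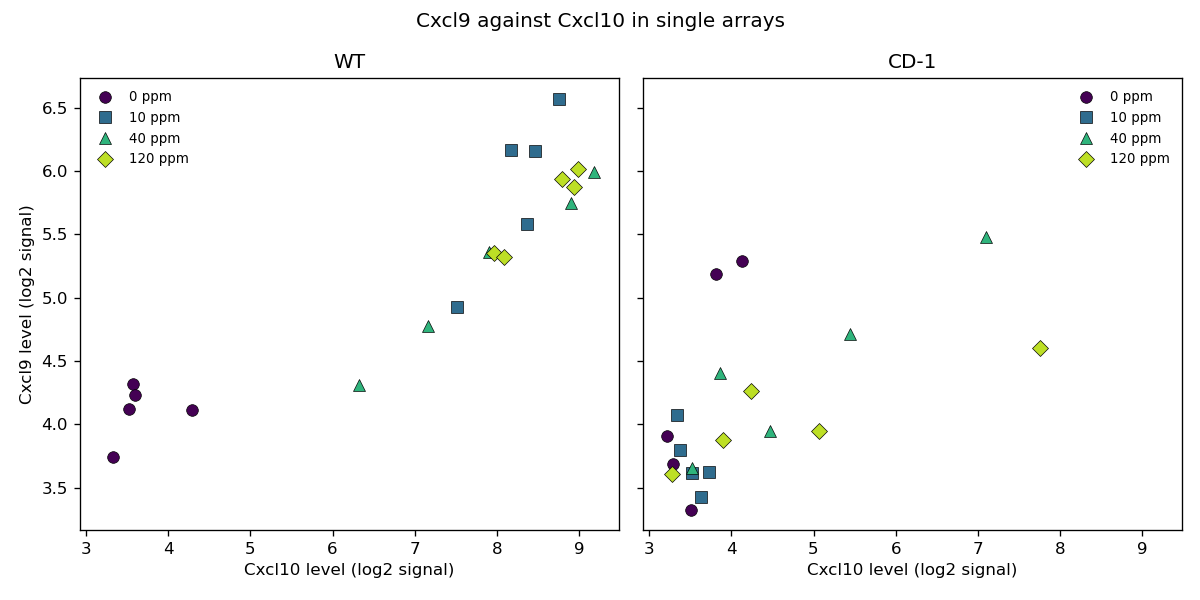
Log2 signal of Cxcl9 against that of Cxcl10 in single arrays of WT (left) and CD-1 (right), with a symbol and colour for each styrene dose. Exposed WT arrays with more Cxcl10 also have more Cxcl9, and in CD-1 the air arrays at 5.19 and 5.29 for Cxcl9 have Cxcl10 at 3.81 and 4.12.

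Arrays of one dose group also differed among themselves in a shared way. Among the 15 exposed WT arrays, deviations from the group mean of Cxcl9 and Cxcl10 had a Pearson r of 0.909 and a Spearman rho of 0.918, given as a description because Cxcl10 in WT chose the genes. Without the 2 arrays farthest from the median r was 0.878, and within the groups of 10, 40 and 120 ppm it was 0.887, 0.995 and 0.977. Cxcl10 and Cxcl11 had r = 0.696, likewise a description, and 0.589 without 2 arrays. Cxcl9 and Cxcl11 had r = 0.632 (permutation within groups, two-sided, unadjusted p = 0.0145). The permutation adjusted p over 12 relations was 0.0434. These relations include the WT pairs with Cxcl10, whose low p values lower the adjusted p of others, so no pass is counted. Without 2 arrays r was 0.423. The adjusted p by permutation was 0.124 for rho and 0.0521 after array medians were subtracted, so this relation rests on single arrays. Cxcr3 with Cxcl9 and with Cxcl11 did not pass. Among the 20 CD-1 arrays Cxcl9 and Cxcl10 had r = 0.624 and rho = 0.615 (permutation, unadjusted p = 0.00051 and 0.00985). Their adjusted p values by permutation, 0.00306 and 0.0394, come from the same 12 relations and have the same limit. For this pair r was 0.833 within air, 0.921 within 40 ppm and 0.865 within 120 ppm. Within 10 ppm it ran the other way (r = -0.788).

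The 2 CD-1 arrays with the highest Cxcl10 stood out in other genes too. They were singled out after their values had been seen. Over 19 genes of the type I interferon response, the mean change against CD-1 air was 2.08 in replicate 4 at 40 ppm and 1.66 in replicate 2 at 120 ppm, the highest 2 of the 20 CD-1 arrays. The 15 exposed WT arrays ran from 1.48 to 2.87 against WT air on that measure. Cyp2f2, which fell in exposed WT lungs, read 12.50 and 12.63 in these 2 arrays, the lowest 2 of the CD-1 arrays. The next lowest, 12.79 and 12.80 in replicates 3 and 5 at 10 ppm, had Cxcl10 at 3.37 and 3.73, within the air range. The other 40 and 120 ppm arrays of CD-1 reached up to 13.13, in replicate 1 at 120 ppm, where Cxcl10 was 4.24. The part of Cyp2f2 or of any other difference between these mice in the Cxcl10 signal was not tested.

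Genes whose pattern was most like that of each member were found by Pearson r over the 80 arrays after the air mean of the strain was subtracted, as a description. For Cxcl10 they were Mx1 (0.980), Oasl1 (0.975), Ifit2 (0.963), Cmpk2 (0.956), Ifit3 (0.955), Ifit1 (0.953), Ddx60 (0.951) and Apol9a (0.951). Mx1, Oasl1 and the Ifit genes encode antiviral proteins induced by interferon. For Cxcl9 they were Cxcl10 (0.879), Iigp1 (0.878), Parp14 (0.876), Irgm1 (0.875) and Rsad2 (0.872). Iigp1 and Irgm1 encode GTPases of the interferon gamma response. For Cxcl11 they were Mx2 (0.759), Stat2 (0.737), Mlkl (0.729), Cmpk2 (0.727) and Mboat1 (0.727). The closest to Cxcr3 reached lower values, with Inpp5j at 0.624, Slc25a42 at 0.616 and Myo1g at 0.608. Cxcr3 itself had r = 0.02 with Cxcl9, -0.19 with Cxcl10 and -0.15 with Cxcl11.

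The inducers of the ligands were read from lists chosen with earlier results of these data known. Their counts stand beside shares of all 11406 genes called higher of 7.67%, 13.7% and 14.3% at 10, 40 and 120 ppm. In WT all 19 tested genes of the type I interferon response rose at each dose, with medians of 2.51, 2.04 and 2.19 at 10, 40 and 120 ppm, beside a median of 0.01 over all genes tested at 120 ppm. Of 14 interferon gamma GTPase and antigen processing genes 13, 10 and 10 rose and none fell, with medians of 1.13, 0.63 and 0.83. Irgm1 rose by 1.77, 1.39 and 1.48 (SE 0.16 each), Tgtp1 by 1.77, 1.35 and 1.58, Iigp1 by 1.98, 1.44 and 1.64, and Nlrc5, a transactivator of MHC class I genes, by 1.43, 0.91 and 1.24. MHC class II genes, whose products present antigen to helper T cells, gave no calls upward: 0 of 6 passed at 10 ppm and 5 of 6 fell at 40 and at 120 ppm. At 120 ppm H2-Aa fell by 0.34 ± 0.07, H2-DMa by 0.47 ± 0.12, H2-Eb1 by 0.40 ± 0.10 and Cd74 by 0.30 ± 0.09.

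Among interferons, their receptors and signal transducers, 4 of 12 tested genes rose at each dose and none fell. Of all genes tested 7.67%, 13.7% and 14.3% were called higher at 10, 40 and 120 ppm. Stat2 and Irf9, subunits of the factor that binds the ISRE, rose by 1.27 ± 0.14 and 0.69 ± 0.10 at 120 ppm, Socs3, a feedback inhibitor, by 1.41 ± 0.17, and Ifngr1, a chain of the interferon gamma receptor, by 0.28 ± 0.07. The interferon genes themselves were below the table median. In the fit over all genes Ifng, the gene of interferon gamma, stood at 2.87 in air and changed by 0.10, 0.01 and 0.11 (adjusted p = 0.445, 0.967 and 0.335 by limma). Ifnb1, the gene of interferon beta, stood at 2.98 and changed by 0.08, 0.03 and 0.08 (adjusted p = 0.58, 0.862 and 0.512 by limma). These 2 genes were named after their values had been seen.

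Of all genes tested 7.67%, 13.7% and 14.3% were called higher at 10, 40 and 120 ppm. Of 12 genes that sense RNA and DNA 7 rose at each dose, and 2 fell at 120 ppm. Zbp1, a sensor of nucleic acids, rose by 2.58 ± 0.24 at 120 ppm, Dhx58 by 2.26 ± 0.21, Ddx58 by 0.98 ± 0.13 and the adaptor gene Myd88 by 0.62 ± 0.06. Zbp1 and Ddx58 also stand in the type I interferon list, so the count of 7 partly repeats the count there. Of 13 NF-kappaB response genes 7 rose and 1 fell at each dose (medians 0.36, 0.33 and 0.35). Il6 rose by 1.76 ± 0.40 at 120 ppm, Nfkbie by 0.54 ± 0.14, Nfkb2 by 0.38 ± 0.10 and Cd40 by 0.36 ± 0.09. Of 6 tested genes listed for the handling of the CXCR3 ligands 1, 3 and 2 were called at 10, 40 and 120 ppm. Of all genes 12.6%, 26.0% and 23.9% were. Mmp8, a protease that can trim chemokines, rose by 0.53 ± 0.15, and Dpp4, the peptidase that clips the ligands' amino terminus, fell by 0.30 ± 0.09 at 120 ppm, while Ackr3, a scavenger receptor of CXCL11, stood at 0.21 ± 0.12 (limma adjusted p = 0.217). At 40 ppm Ackr3 rose by 0.35 ± 0.12 (limma adjusted p = 0.0359).

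The ligands of CXCR3 were not alone among chemokines. Of 25 other tested chemokine genes 12 rose at each dose, beside 7.67%, 13.7% and 14.3% of all genes called higher at 10, 40 and 120 ppm. At these doses 0, 2 and 1 fell, with list medians of 0.53, 0.56 and 0.55. The 4 with the lowest p were Ccl12 (2.71 ± 0.18 at 120 ppm), Ccl2, Ccl7 and Ccl22 (0.96 ± 0.13). The first 3 of these draw monocytes, and CCL22 draws T cells that carry CCR4. Ccl12, Ccl7 and Ccl2 were the 3 of these 25 genes whose change at 120 ppm exceeded that of Cxcl9. Of 10 other chemokine receptor genes 0, 2 and 2 were called at the 3 doses, where 12.6%, 26.0% and 23.9% of all genes were. At 120 ppm 1 rose, Ackr2 (0.31 ± 0.09), while Ackr4, a scavenger of other chemokines, fell by 0.66 ± 0.14.

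**Figure D4:**
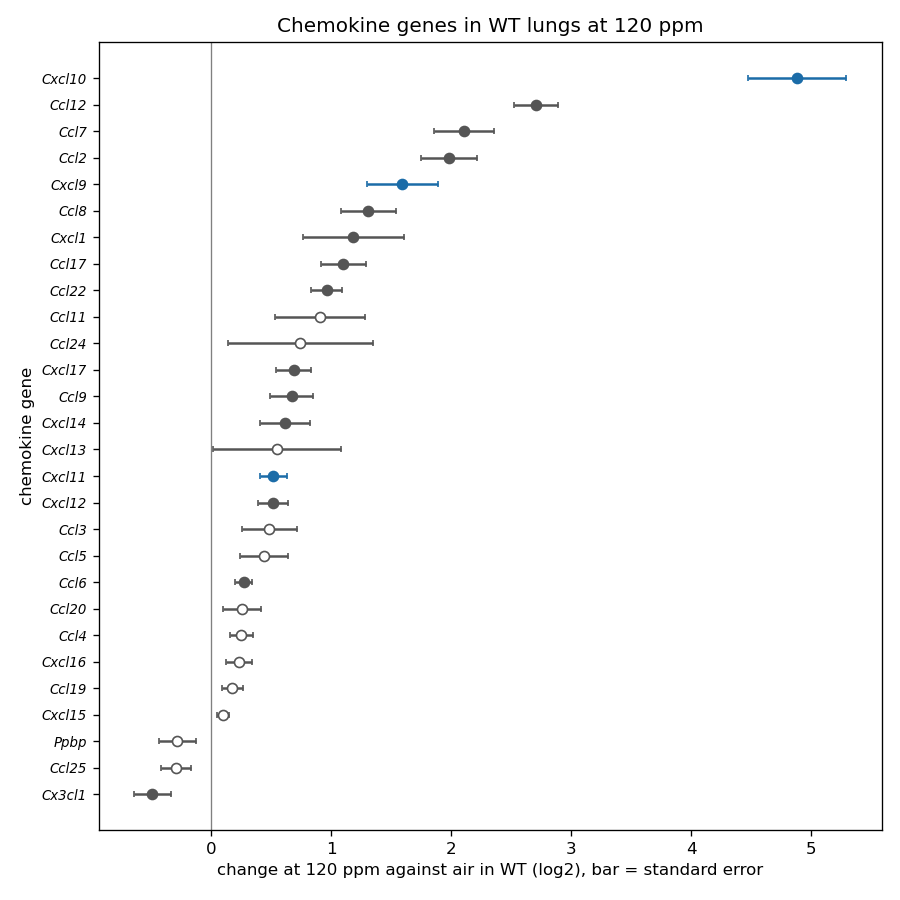
Change of chemokine genes in WT lungs at 120 ppm against air, in log2 units, with the standard error. Blue points are the CXCR3 ligands, and other genes have filled points where the limma adjusted p was below 0.05 and open points elsewhere. Cxcl10 lies at 4.89, above Ccl12 at 2.71, and Cxcl9 at 1.59 lies below Ccl2.

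T cells and natural killer cells are the main carriers of CXCR3. The shares of all genes called in either direction were 12.6%, 26.0% and 23.9% at 10, 40 and 120 ppm. Of 10 tested T cell genes 0 passed at 10 ppm, 2 fell at 40 ppm, and at 120 ppm Cd3e rose by 0.23 ± 0.08 (adjusted p = 0.0393 by limma) and Cd2 fell by 0.68 ± 0.14. The mean level of 12 T cell genes ran from 4.87 to 5.16 over the WT arrays in air and from 4.88 to 5.07 at 120 ppm. Of 9 tested natural killer and cytotoxic cell genes limma called 0 at each dose, with medians of 0.30, -0.07 and 0.25. At an unadjusted p under 0.05 there were 3, 0 and 2 of the 9, with Il2rb (0.37 ± 0.16) and Gzmb (0.38 ± 0.17) at 120 ppm. Their mean level over 12 genes ran from 4.61 to 5.09 in air, from 4.72 to 5.46 at 10 ppm and from 4.82 to 5.04 at 120 ppm.

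Markers of other cell types also passed the test in WT. In either direction 12.6%, 26.0% and 23.9% of all genes tested were called at 10, 40 and 120 ppm. Of 7 monocyte genes 3 rose and 1 fell at 120 ppm, with a mean level of 8.08 to 8.29 in air and 8.30 to 8.57 at 120 ppm. Cd14 rose by 0.62 ± 0.11, Fcgr4 by 0.44 ± 0.14 and Ace by 0.35 ± 0.10, and Csf1r fell by 0.37 ± 0.07. Of 8 alveolar macrophage genes 2 fell at 120 ppm, Siglecf by 1.02 ± 0.11 and Pparg by 0.55 ± 0.11, which is close to the 23.9% called among all genes. Of 6 ciliated cell genes 1, 2 and 3 fell at 10, 40 and 120 ppm. The counts at 10 and 40 ppm are near the shares of all genes. At 120 ppm the genes that fell were Tppp3 (-0.46 ± 0.08), Ccdc153 (-0.66 ± 0.16) and Dnah5 (-0.62 ± 0.18). Of 5 dendritic cell genes Itgax fell at 120 ppm, by 0.37 ± 0.09. Of 7 fibroblast genes Col1a2 rose by 0.37 ± 0.11 and Dcn fell by 0.77 ± 0.23 at that dose. The dendritic cell and fibroblast counts are likewise near the 23.9% of all genes. Of 9 club cell genes 4, 8 and 6 fell at 10, 40 and 120 ppm, and their mean level ran from 12.48 to 12.61 in air, 11.69 to 12.14 at 40 ppm and 11.92 to 12.20 at 120 ppm. All 7 monocyte and all 9 club cell genes were above the table median in these groups. The part of these cell types in the ligand signal was not tested.

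In KO, TG and CD-1 limma called 0 genes in any of the 24 lists at any dose, where at most 0.0701% of the 11406 genes passed in any of these contrasts. In CD-1 17 of the 19 type I interferon genes had an unadjusted p under 0.05 at 40 ppm and 15 at 120 ppm, beside 3.88% and 5.23% of all genes tested. The list medians were 0.90 and 0.81. At 10 ppm 0 of 19 did, beside 2.38% of all genes tested, and the median was -0.09. In KO the number of these genes with an unadjusted p under 0.05 was 0, 0 and 1, beside 5.69%, 4.94% and 5.23% of all genes tested. In TG it was 0, 0 and 1, beside 13.8%, 7.6% and 12.6%. Of the 14 interferon gamma genes 9 had an unadjusted p under 0.05 in TG at 10 ppm, with a list median of 0.32, and 4 of 9 natural killer genes did, with a median of 0.31. Among all genes 13.8% did in that contrast. In KO 3 of the 14 interferon gamma genes did at 120 ppm, with a median of -0.32, where 5.23% of all genes did. Over the mean of the KO doses 6 of 14 did, where 5.65% of all genes did.

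The strains were also compared in air, where most genes differed on the deposited scale. Against WT limma called 80.4% of the 11406 genes for TG, 75% for KO and 53.4% for CD-1 (77.3%, 72% and 48.4% of all genes). Strain and array processing cannot be told apart there, so values are given relative to the median difference of all genes, while the p values test the difference itself. On that scale the difference of Cxcl10 from WT was 0.41 for KO, 0.35 for TG and 0.16 for CD-1, and that of Cxcl9 was -0.16, -0.35 and 0.40. For Cxcl11 it was -0.05, -0.16 and -0.25. After array medians had been subtracted none of Cxcl9, Cxcl11 and Cxcr3 passed in KO or TG by limma. In CD-1 Cxcr3 passed, with a tested difference of 0.33 ± 0.10 (limma adjusted p = 0.0178). Without CD-1 air replicate 1, its highest air array at 4.10, the tested difference was 0.21 ± 0.08 (limma adjusted p = 0.0446). Tested relative to the median difference of all genes, Cxcr3 in CD-1 was 0.23 ± 0.10 and did not pass (limma adjusted p = 0.101). Cxcl11 in CD-1 passed in that test (-0.25 ± 0.09, limma adjusted p = 0.043).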

How the data were processed

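Lung RNA from 80 mice was measured on expression arrays. The deposited values are log2 signal per probe set, which the authors made with RMA and Partek. The submitters' processing notes name these tools without a version, and do not say whether strains were normalized jointly. Of 45037 probe sets 28898 carried 1 gene symbol in the platform annotation, 551 several and 15588 none listed here, which gave 17097 genes. A gene was represented by its brightest probe set. All 80 value columns matched a sample title.

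Genes above the table median (4.28) in at least 5 arrays, 11406 in all, entered models fitted across all genes by limma 3.58.1 (R 4.3.3), each strain alone (20 arrays), pairs of strains together (40 arrays) and the air arrays of the 4 strains (20 arrays), with Benjamini-Hochberg adjustment at 0.05. Cxcl11 and Cxcr3 were read from fits without that filter. Intervals are 95%. Arrays are biological replicates per the labels, and n = 5 per group limits the precision. Within a group arrays correlated at 0.978 to 0.997. The code of the fits was tried on simulated data with noise drawn independently for each gene. Of 50 genes changed by 1 log2 unit, 98% were recovered for WT at 120 ppm, 82% for CD-1 at 120 ppm and 92% for the WT minus KO difference. Of the genes called there, 3.08%, 6.91% and 4.92% had not been changed. Variation shared between genes was not simulated, so these shares do not give the power of the real contrasts. Correlations of deviations from group means used 100000 permutations within groups (Python 3.11.15, numpy 2.4.6, scipy 1.17.1). Promoter motifs were matched in RefSeq sequences of GRCm38.p6. The members and the 24 gene lists were chosen with earlier results of these data known. In each list up to 4 tested genes with the lowest p at 120 ppm in WT could be named. Alternatives were array median subtraction, quantile normalization, no filter, the mean of probe sets, 1 fit of 80 arrays, a replicate block and leaving out each array.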

Additional observations from a re-analysis of the deposited data

Results flagged for a closer look

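In 3 of 64 groups of 5 arrays, 1 array stood apart from the other 4, where chance flags about 1 group in 20. These were Cxcl9 in TG at 10 ppm (replicate 4 at 2.89), Cxcl10 in WT air (replicate 1 at 4.28) and Cxcl10 in TG at 120 ppm (replicate 1 at 4.23).

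Of 39 differences in response between strains for Cxcl9, Cxcl11 and Cxcr3, 15 passed by limma, and none of them was of Cxcr3. The 39 leave out TG minus KO at single doses, where none passed, and count each mean over the doses beside its single doses. Over these contrasts 0.0526% to 17.2% of the 11406 genes and 0.0585% to 11% of all genes passed. The values of Cxcl10 are a description, since the genes were chosen on it. For WT minus KO at 10, 40 and 120 ppm and over the 3 doses the differences were 4.64, 4.20, 4.86 and 4.57 for Cxcl10, 2.06, 1.31, 1.91 and 1.76 for Cxcl9, and 0.52, 0.55, 0.56 and 0.54 for Cxcl11. For WT minus TG they were 4.80, 4.50, 4.93 and 4.74 for Cxcl10 and 1.91, 1.21, 1.69 and 1.60 for Cxcl9. For CD-1 minus WT at 10 and 120 ppm and over the doses they were -4.66, -3.63 and -3.75 for Cxcl10 and -2.35, -1.82 and -1.71 for Cxcl9. The comparisons share the WT arrays.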

How the results depend on the processing

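Over the settings other than leaving out an array, 1008 values were counted as unchanged and 6 as moved. For a tested value unchanged means the same side of the threshold. A change called in neither setting also had to stay within a fixed multiple of its standard error, or it counted as moved. The sign was compared only for values called in either setting. Differences from WT in air are printed relative to the median difference of all genes, but the difference itself was tested. Tests on the deposited scale called 5 of them that tests after array median subtraction did not, Cxcl9 in TG (-0.35), Cxcl11 in KO, TG and CD-1 (-0.053, -0.16 and -0.25) and Cxcr3 in TG (-0.18). Median subtraction brought Cxcr3 in CD-1 air (0.23) and Cxcl11 in WT minus TG at 120 ppm (0.48) past the threshold. In alternatives chosen after seeing the data, Cxcr3 in CD-1 air passed without CD-1 air replicate 1 too (0.12 relative to the median difference). When the printed value itself was tested, Cxcr3 in CD-1 did not pass, Cxcl11 in CD-1 did (-0.25), and the other 4 again did not (-0.35, -0.053, -0.16 and -0.18). Quantile normalization likewise ended the calls in air of Cxcl9 in TG (-0.41), Cxcl11 in KO (-0.10) and Cxcr3 in TG (-0.24). With the mean of probe sets Cxcl11 in KO air turned to 0.037. One fit of 80 arrays brought past the threshold Cxcl11 in WT at 10 ppm (0.34) and Cxcl11 in WT minus TG at 120 ppm (0.42). Replicate numbers were not used as pairs in the main fits. Same-numbered arrays correlated above 0.1 in 7, 10, 11 and 7 of 30 pairs in WT, KO, TG and CD-1. Their median r was -0.016, 0.047, 0.012 and 0.028, beside -0.028, -0.045, -0.010 and -0.009 for arrays with other numbers. These values do not settle whether the numbers pair samples. The replicate block changed 0 calls of Cxcl9, Cxcl11 and Cxcr3. The difference of Cxcl10 in CD-1 minus WT at 40 ppm, a description, was -2.95 with the replicate block and in 1 fit of 80 arrays. The cause was not tested for any of these.

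Leaving out 1 array kept 2383 values on their side. The range for Cxcl10 in CD-1 minus WT at 40 ppm, a description, was -3.50 to -2.61. The ranges of results with a changed call were -2.05 to -1.56 for Cxcl9 in CD-1 minus WT at 120 ppm, 0.28 to 0.41 and 0.31 to 0.44 for Cxcl11 in WT at 10 and 40 ppm, 0.46 to 0.59 for Cxcl11 in WT minus KO at 10 ppm, and 0.36 to 0.50 for Cxcl11 in WT minus TG at 120 ppm. In air they were -0.37 to -0.061 for Cxcl9 in KO, -0.47 to -0.24 for Cxcl9 in TG and -0.10 to 0.0081 for Cxcl11 in KO, which turned positive without WT air replicate 3. Cxcl11 and Cxcr3 lay below the table median in every array.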
